A study of Mus musculus with 9 samples.

Results

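Cxcl1, Cxcl2 and Cxcl3 encode the mouse chemokines KC, MIP-2 and DCIP-1, which attract neutrophils through the receptor CXCR2. They were taken as the rows whose identifier equals the gene symbol, and all 3 were found among the 22173 genes of each deposited table. The 3 genes were chosen with their values in these libraries already known, so their levels and differences are given as a description, without a test. The cells were neutrophils from the bone marrow of wild-type mice, held for 2 days inside gelatin methacryloyl (GelMA), a crosslinked gelatin hydrogel, in RPMI medium with serum. Stiffness is the only difference between the gels that the labels name: low (1.5 kPa, the control group), middle (2.6 kPa) and high (5.7 kPa). There were 3 libraries from each. The labels name no added stimulus. The age, sex and number of the mice, the purity of the cells and what a replicate number stands for are also not given in the sources. A p-value here therefore reflects only how much these libraries varied, and that variation may be technical.

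Chemokines of this family carry the residues Glu-Leu-Arg ahead of a CXC motif and bind CXCR2, a receptor coupled to inhibitory G proteins that drives neutrophil migration, degranulation and release from the marrow. Neutrophils, macrophages and stromal cells make them within hours of contact with interleukin-1, TNF or microbial products, through NF-kB at short promoters. Their mRNAs are short-lived because AU-rich elements recruit decay factors, and neutrophils that secrete them draw in further neutrophils.

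The genes lie close together on mouse chromosome 5. In the RefSeq gene order of GRCm38.p6 the protein-coding genes run Cxcl5, Ppbp, Pf4, Cxcl3, Cxcl15, Cxcl1, Cxcl2. The 120 bases before each annotated transcription start are shown because all 3 hold the same pair of short elements in the same order. They are the only exact runs of at least 8 bases that the 250 bases before each start have in common, and they are set in capitals: GGGAATTTCCC, of the NF-kB binding type, and ATAAAAGG, of the TATA box type. The sequences come from RefSeq (GRCm38.p6, plus strand, chr5:90891125-90891244 for Cxcl1, chr5:90903779-90903898 for Cxcl2 and chr5:90785981-90786100 for Cxcl3). All 3 genes had an entry.
Cxcl1: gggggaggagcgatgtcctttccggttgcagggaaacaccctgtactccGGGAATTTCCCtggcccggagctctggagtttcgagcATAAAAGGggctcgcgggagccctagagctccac
Cxcl2: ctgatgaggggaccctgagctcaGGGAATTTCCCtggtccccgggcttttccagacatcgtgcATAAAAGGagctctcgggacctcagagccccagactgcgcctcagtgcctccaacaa
Cxcl3: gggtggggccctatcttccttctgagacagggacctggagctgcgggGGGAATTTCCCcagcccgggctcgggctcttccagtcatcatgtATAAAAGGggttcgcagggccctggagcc
GGGAATTTCCC began 71 bases before the start in Cxcl1, 97 in Cxcl2 and 73 in Cxcl3, and ATAAAAGG began 34, 57 and 29 bases before it. Over the 250 bases before the start, searched on both strands, GGGAATTTCCC occurred in 14 of 32851 mouse promoter windows (0.0426%) and ATAAAAGG in 507 (1.54%). Both were found by comparing the 3 windows, so that the genes hold them is no test. The NF-kB consensus of 10 bases, which GGGAATTTCCC meets on either strand at overlapping places, occurred in 7.25% of windows. TATAAA (12.4% of windows) was found in Cxcl3 alone of the 3, GGGCGG (32.7%) in Cxcl2 alone, and TGANTCA (6.75%) in none of them. These matches describe the letters of the reference and not binding in the cells.

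Reads of the 3 genes can be told apart at the length sequenced. Their main coding transcripts (GENCODE M21) of 953 bases for Cxcl1, 1109 for Cxcl2 and 1016 for Cxcl3 share an exact run of 23 bases between Cxcl1 and either of the others and of 110 bases between Cxcl2 and Cxcl3. None of their windows of 150 bases, the read length, occurred in a transcript of another gene (804, 960 and 867 windows tested). Reads trimmed below 110 bases could still match both Cxcl2 and Cxcl3, and the counting rule for such reads is not stated in the labels.

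Total counts were 13172879 to 19486546 per library. Replicate 1 of every group stood apart from replicates 2 and 3. With group means removed from log2 CPM, replicate 1 libraries of different groups correlated at 0.765 to 0.856. With replicates 2 and 3 of other groups they correlated at -0.777 to -0.65. The first principal component of all libraries held 68.1% of the variance. Summed levels of 10 neutrophil markers were 2899 to 3369 CPM (counts scaled to a common library total after TMM normalisation) in the replicate 1 libraries and 12011 to 21701 in the others, and those of 10 macrophage markers were 6348 to 7739 and 3462 to 7563. No marker of either list was at 0 in every library. The macrophage sum was the larger in every replicate 1 library and the neutrophil sum in every other library. The most abundant marker over the 9 libraries was S100a8 in the neutrophil list (mean 3342 CPM) and Gpnmb in the macrophage list (mean 3123 CPM). In bulk libraries, fewer cells of a type and less RNA per cell cannot be told apart.

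Cxcl2 was by far the most abundant of the 3 mRNAs and near the top of all genes. Cxcl2 stood at 2492, 1686 and 1495 CPM in low replicates 1, 2 and 3, at 2871, 2639 and 2913 CPM in middle and at 4250.2, 3878 and 4165 CPM in high. Every high library was above every middle library, and every middle library above every low library. By CPM it ranked 19th, 33rd and 38th of all genes in the low libraries and 12th, 13th and 11th in the high ones.

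Cxcl1, the classical neutrophil attractant KC, was far less abundant and spread more widely. It stood at 66.9, 21.2 and 17.4 CPM in low replicates 1, 2 and 3, at 150.3, 55.8 and 62.7 CPM in middle and at 276, 91.4 and 99.8 CPM in high. The high libraries all lay above the low ones, while the middle libraries overlapped both, because replicate 1 of each group was the highest. The raw counts behind these values ran from 288 to 3878 per library.

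Cxcl3 followed the pattern of Cxcl1 at a somewhat higher level. It stood at 91.1, 58.6 and 48.0 CPM in low replicates 1, 2 and 3, at 238, 89.7 and 117 CPM in middle and at 361, 157 and 196 CPM in high. Again high and low did not overlap, and middle overlapped both neighbours.

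**Figure D1:**
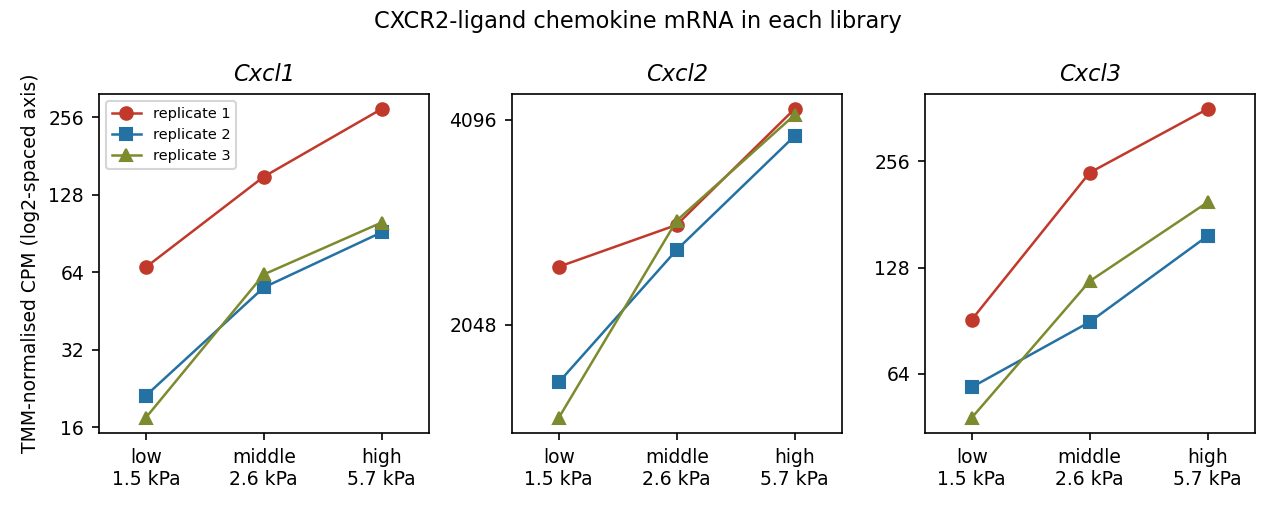
TMM-normalised CPM (vertical, log2-spaced axis, each panel with its own range) of Cxcl1, Cxcl2 and Cxcl3 in low, middle and high gels; each point is 1 library and lines join libraries of the same replicate number. All 9 lines rise from low through middle to high, and replicate 1 lies above the others for Cxcl1 and Cxcl3, while for Cxcl2 the 3 numbers converge in middle and high.

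All 3 genes had high libraries wholly above the low ones, an arrangement that 5.9% of the 12094 tested genes showed. Cxcl2 alone of the 3 also had middle wholly above low (3.56% of tested genes) and high wholly above middle (2.54%). Within each replicate number all 3 genes were lowest in low, intermediate in middle and highest in high, which 5.1% of tested genes were. The genes were chosen on these differences, so nothing is read from these shares.

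The difference between gels was not of one size. High exceeded low by a log2 difference of 2.15 ± 0.69 (SE, n = 3 libraries per group) for Cxcl1, 1.85 ± 0.46 for Cxcl3 and 1.12 ± 0.22 for Cxcl2 in the edgeR fit without a term for the replicate number, or 4.43-, 3.61- and 2.17-fold. With the replicate number as a block the differences were 2.21 ± 0.12, 1.80 ± 0.14 and 1.14 ± 0.14. The median over all tested genes was 0.00 in both fits. By the size of this difference with the block, Cxcl1 ranked 20th, Cxcl3 43rd and Cxcl2 150th of 12094 genes. Without the replicate 1 libraries, with the block, the differences were 2.30 ± 0.11, 1.71 ± 0.14 and 1.33 ± 0.10.

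From low to middle the 3 genes and numbers were spread widely, and from middle to high they lay close together. From low to middle, within replicates 1, 2 and 3, the log2 difference was 1.17, 1.40 and 1.85 for Cxcl1, 1.38, 0.61 and 1.29 for Cxcl3, and 0.20, 0.65 and 0.96 for Cxcl2. From middle to high it was 0.87, 0.71 and 0.67 for Cxcl1, 0.60, 0.81 and 0.74 for Cxcl3, and 0.57, 0.56 and 0.52 for Cxcl2. The upper step thus lay between 0.52 and 0.87 for every gene and number, whereas the lower step ran from 0.20 to 1.85. Cxcl2 in replicate 1 had the smallest lower step, 1.15-fold, from the highest low library. The step in stiffness was not equal, from 1.5 to 2.6 kPa and from 2.6 to 5.7 kPa, and both differences use the same middle libraries.

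**Figure D2:**
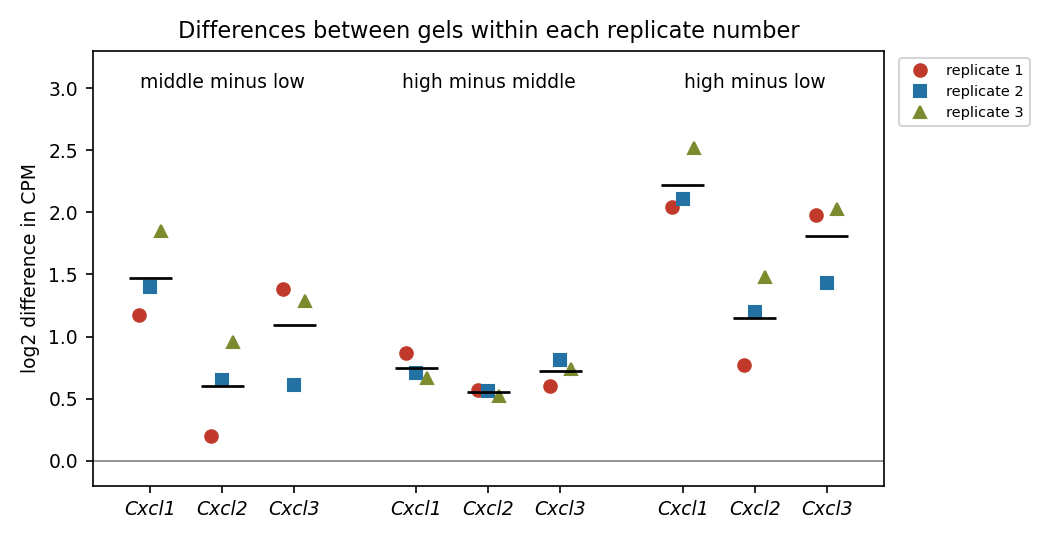
Log2 difference in CPM (vertical) between gels within each replicate number, for middle minus low, high minus middle and high minus low; symbols are replicate numbers and the bar is their mean (n = 3). Points for high minus middle sit between 0.52 and 0.87 for all 3 genes, and those for middle minus low run from 0.20 for Cxcl2 to 1.85 for Cxcl1.

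Replicate 1 stood apart to an unequal degree in the 3 genes. Cxcl1 in replicate 1 was 3.47-, 2.54- and 2.88-fold the mean of replicates 2 and 3 in low, middle and high. For Cxcl3 the same ratio was 1.71, 2.30 and 2.04, and for Cxcl2 it was 1.57, 1.03 and 1.06. Cxcl1 and Cxcl3 were above both other numbers in all 3 groups, as were 33.6% of tested genes, and Cxcl2 was not, since middle replicate 3 exceeded middle replicate 1. Between replicates 2 and 3 the ratio stayed between 0.766 and 1.22 for every gene and group. The neutrophil marker sums given above moved with the same split. Summed monocyte markers did too, at 1179 to 1331 CPM in replicate 1 and 2503 to 3195 in the others. B cell sums were 31.6 to 55.1 and 104 to 206.5 CPM. T or NK cell and endothelial sums were also lower in replicate 1. The T or NK cell sums were near the limit of detection, at 0.377 to 0.444 and 1.3 to 2.14 CPM. Megakaryocyte or platelet sums were higher in replicate 1, with Vwf the most abundant marker of that list (mean 196 CPM). Ppbp and Pf4 of the same list were lower there, Ppbp at 3.09 to 4.12 against 23.1 to 71.6 CPM and Pf4 at 13.1 to 39.5 against 53.1 to 84.8 CPM. Sums of the remaining lists overlapped. The part of these cell types in the differences of the 3 genes was not tested.

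Levels of different genes were compared per kilobase of the deposited exonic size (955, 1083 and 1018 bases for Cxcl1, Cxcl2 and Cxcl3). Cxcl2 stood at 1746 ± 489 CPM per kilobase in low, 2592 ± 136 in middle and 3784 ± 180 in high (mean ± SD, n = 3). Cxcl3 stood at 64.7 ± 22.1, 146 ± 77.4 and 234 ± 106 CPM per kilobase, and Cxcl1 at 36.8 ± 28.9, 93.8 ± 55.2 and 163 ± 109. In every library the order was Cxcl2, Cxcl3, Cxcl1. The means of Cxcl3 and Cxcl1 differed by less than the larger of their SDs in every group, but within a library Cxcl3 was always the higher, by 1.23- to 2.59-fold per length.

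The make-up of the trio differed between gels, with Cxcl2 its main part in every library. Per length, Cxcl2 made up 93.5%, 95.1% and 95.5% of the 3 mRNAs in low replicates 1, 2 and 3 and 85.9%, 93.5% and 92.8% in high. In middle its share was 87.1%, 94.3% and 93.7%. Cxcl1 made up 2.85%, 1.36% and 1.26% in low, 5.17%, 2.26% and 2.29% in middle and 6.32%, 2.50% and 2.52% in high. Cxcl3 made up 3.64%, 3.52% and 3.26% in low, 7.68%, 3.41% and 4.01% in middle and 7.75%, 4.03% and 4.65% in high. The share of Cxcl1 was higher at each step in every replicate number, while that of Cxcl3 in replicate 2 was lower in middle than in low. The excess of Cxcl2 over Cxcl1 per length was 32.8-, 70.2- and 75.9-fold in low and 13.6-, 37.4- and 36.8-fold in high. Together the 3 genes took 0.159% to 0.267% of all counts in the low libraries, 0.281% to 0.333% in middle and 0.401% to 0.488% in high, with no overlap between the groups.

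**Figure D3:**
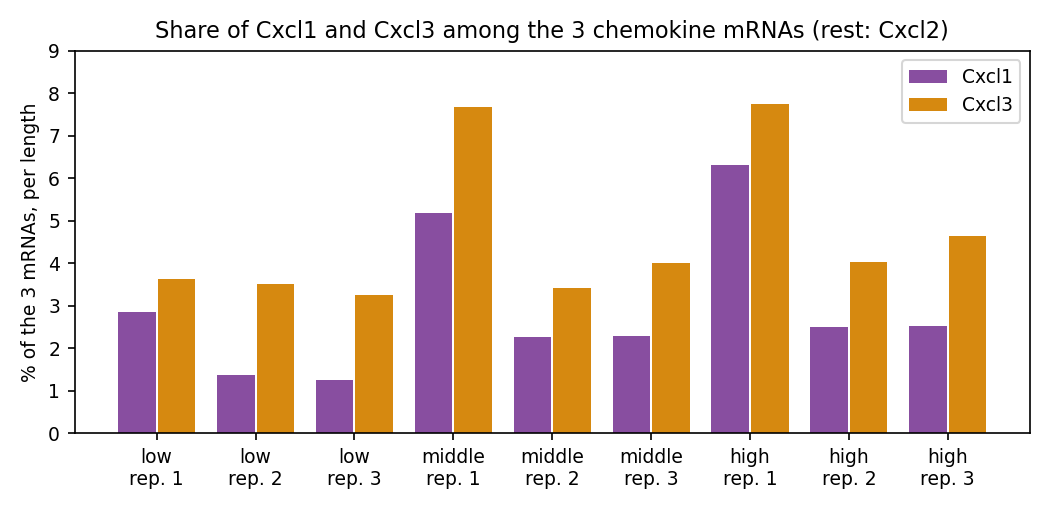
Share of Cxcl1 and Cxcl3 (percent, vertical, from 0) in the summed length-normalised level of Cxcl1, Cxcl2 and Cxcl3, in each of the 9 libraries; the rest is Cxcl2. Shares of Cxcl1 are higher in high than in low for each replicate number, and the middle and high replicate 1 libraries reach 5.17% and 6.32%.

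None of the other CXCR2 ligand genes in the same cluster passed the test, high against low, in either fit of all libraries, and Ppbp passed without replicate 1. Ppbp, whose product NAP-2 is best known from platelets, stood at 3.09, 50.0 and 71.6 CPM in low replicates 1, 2 and 3 and at 4.12, 23.1 and 23.9 CPM in high. It was lower in high for replicates 2 and 3 and not for replicate 1 (log2 difference -1.05 ± 0.29 with the block, edgeR adjusted p = 0.0548). Without the replicate 1 libraries, with the block, it fell by 1.36 ± 0.13 (edgeR adjusted p = 3.64e-06). The list of 6 megakaryocyte or platelet markers holds Ppbp and Pf4. Of the other 4, Itga2b, Gp9 and Vwf fell from low to high with the block of all libraries, where 8.73% of tested genes did, and without replicate 1 all 6 fell, against 14.1%. The other 4 summed to 531, 176 and 195 CPM in low replicates 1, 2 and 3 and to 319, 133 and 119 CPM in high, and their part in the values of Ppbp was not tested. Cxcl5, which encodes LIX, was near the limit of detection at 0.829 to 3.01 CPM in all libraries (-0.13 ± 0.44, edgeR adjusted p = 0.871). Cxcl15 had at most 7 counts in a library and was too low to test. Pf4, the platelet factor 4 gene beside them, which is not a CXCR2 ligand, differed by 0.10 ± 0.43 with the block (edgeR adjusted p = 0.906). Without replicate 1 it fell by 0.44 ± 0.10 (edgeR adjusted p = 0.00502). Cxcl5, Cxcl15 and Pf4, for their place in the cluster, and the marker genes are named after their values were seen.

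Both receptor genes were lower in stiffer gels. Cxcr2, the receptor of all 3, stood at 111, 489.7 and 514 CPM in low replicates 1, 2 and 3, at 86.4, 455 and 486 CPM in middle and at 48.8, 355 and 442 CPM in high. Within each number it was highest in low and lowest in high, although the groups overlapped because replicate 1 was low throughout. Cxcr2 fell by 0.60 ± 0.15 on the log2 scale from low to high (edgeR with the block, adjusted p = 0.0289). Cxcr1, a related receptor gene, stood at 30.8, 8.89 and 9.95 CPM in low and at 4.76, 5.66 and 2.59 CPM in high. Its counts ran from 40 to 408 per library. It fell by 1.74 ± 0.35 (edgeR with the block, adjusted p = 0.0154), and by 1.19 ± 0.26 without replicate 1, with the block. Neither passed in the edgeR fit without the block, and 1 of them did by DESeq2. Ackr1, Ackr2, Ackr3 and Ackr4, which encode scavenging receptors of chemokines, were too low to test. The ratio of Cxcl2 to Cxcr2 CPM, not scaled for length, was 22.4, 3.44 and 2.91 in low and 87.0, 10.9 and 9.42 in high. Per kilobase the group means of Cxcl2 and Cxcr2 were 1746 and 119 CPM in low and 3784 and 90.3 CPM in high. In high against low, with the block, 3 of the 10 neutrophil markers fell (Cxcr2, Retnlg and Ltf) and the other 7 did not pass, and 1 of 10 macrophage markers rose (Adgre1) and 5 fell, where 6.72% of all tested genes were called higher and 8.73% lower. Without replicate 1, 7 of the neutrophil markers fell. The summed neutrophil markers ran from 2899 to 21701 CPM in low and from 3332 to 12131 in high, and their part in the receptor values was not tested.

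**Figure D4:**
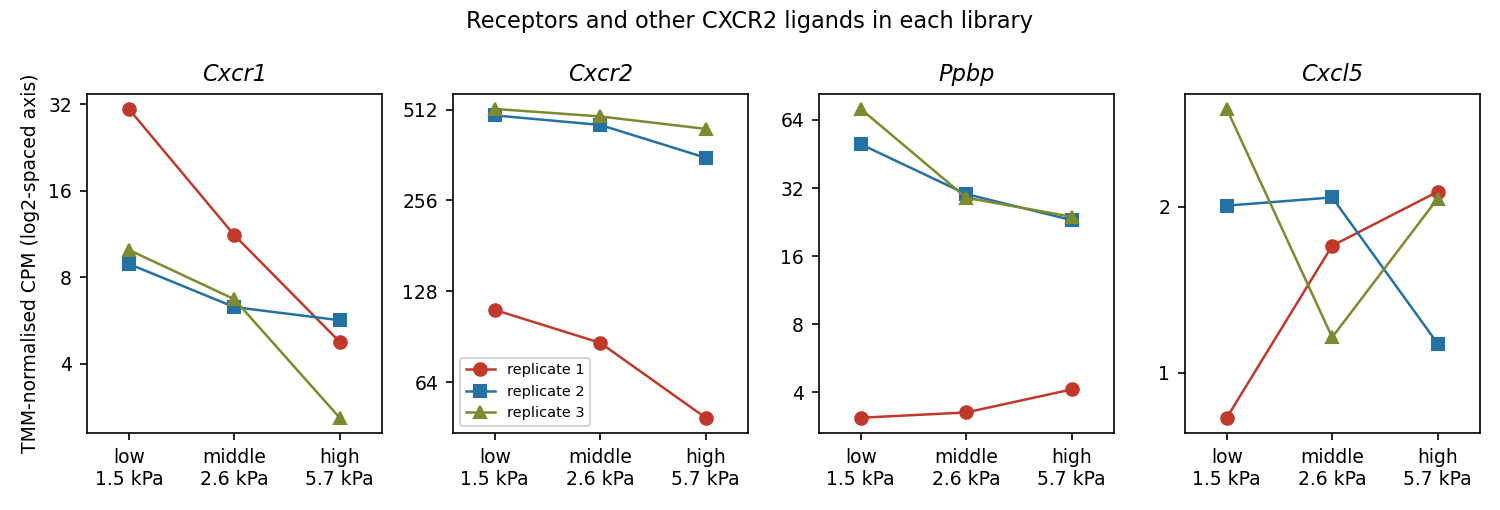
TMM-normalised CPM (vertical, log2-spaced axis, each panel with its own range) of the receptor genes Cxcr1 and Cxcr2 and of the ligand genes Ppbp and Cxcl5 by gel; each point is 1 library and lines join replicate numbers. Cxcr1 and Cxcr2 lie lower in high than in low for each number, Ppbp does so for replicates 2 and 3, and Cxcl5 has no common order.

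Genes around the trio were grouped in 8 lists with 125 tested genes. "Rose" and "fell" below mean an adjusted p under 0.05 over all tested genes, high against low, in edgeR's quasi-likelihood fit with the replicate block, where 15.5% of all tested genes were called (6.72% higher and 8.73% lower). In that fit 33 of the 125 rose and 18 fell. Without the block 2 of the 125 passed, Sdc1 and Hpse, against 0.091% of all tested genes. At an unadjusted p under 0.05 there were 30, against 934 of all 12094 tested genes. DESeq2 called 16, against 257 of all genes. Without replicate 1, with the block, 58 rose and 23 fell, against 26.1% of tested genes called (11.9% higher and 14.1% lower). The lists were drawn up with earlier results of these data known.

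Among CXC chemokines outside the trio, 0 of 8 tested genes passed, with a median log2 difference of 0.14. At an unadjusted p under 0.05, 2 were higher and 2 lower, against 3722 of all 12094 tested genes in either direction. DESeq2 without the block called 0 of the 8. The nearest to passing besides Ppbp were Cxcl12, the CXCR4 ligand that retains neutrophils in marrow (1.42 ± 0.45, edgeR adjusted p = 0.0524), Cxcl14 (1.80 ± 0.58, 0.058) and the transmembrane chemokine gene Cxcl16 (-0.30 ± 0.11, 0.0825). Cxcl12 and Cxcl14 were near the limit of detection, with means of 0.961 and 0.408 CPM in low and 2.68 and 1.54 CPM in high. Without replicate 1, 3 of the 8 rose (Cxcl12, Cxcl14 and Cxcl13, the last at a mean of 0.647 CPM in high) and 2 fell.

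Upstream of the trio, 4 of 18 tested inducer and receptor genes rose and 0 fell, with a median of 0.21. They were Tnf (0.52 ± 0.08), Il1b (0.98 ± 0.21), the TNF receptor gene Tnfrsf1b (0.40 ± 0.09) and Cd14 (1.34 ± 0.22), which encodes the lipopolysaccharide co-receptor. Of 15 NF-kB subunits and inhibitors, 5 rose and 0 fell, all 15 differences were positive, and the median was 0.44. Nfkb1 (0.80 ± 0.09) and Nfkb2 (0.70 ± 0.15) encode the precursors of p50 and p52, and Nfkbib (0.45 ± 0.08) and Nfkbid (0.44 ± 0.11) encode proteins of the inhibitor family. Without replicate 1 the counts were 9 and 1 for the inducers and 13 and 0 for the NF-kB genes.

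Other genes known to be induced by interleukin-1, TNF or interleukin-17 were the list with the highest median, 0.59, with 11 of 18 that rose and 2 that fell. Csf3, the granulocyte growth factor gene, rose by 3.32 ± 0.50, from 25.7, 4.66 and 2.89 CPM in low to 109, 65.9 and 75.1 CPM in high. Saa3 (1.82 ± 0.18), an acute phase gene, Lcn2 (1.32 ± 0.16), which encodes an iron-withholding granule protein, Sod2 (1.22 ± 0.12), the mitochondrial superoxide dismutase gene, and the CC chemokine gene Ccl4 (0.67 ± 0.09) rose too. The 2 that fell were the CC chemokine genes Ccl2 (-0.61 ± 0.15) and Ccl7 (-0.74 ± 0.11). Without replicate 1, 13 of the 18 rose and 3 fell.

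The transcripts of the trio are rich in ATTTA, the core of AU-rich decay elements: Cxcl2 holds 11 copies, Cxcl1 7 and Cxcl3 5. Among 5338 coding transcripts of 900 to 1200 bases the median was 1 copy, and 0.0187%, 0.225% and 1.52% held as many as Cxcl2, Cxcl1 and Cxcl3 or more. These shares include the 3 transcripts themselves, and that of Cxcl2 is its own transcript alone. Copies were counted over whole transcripts and not over the untranslated ends only. Of 19 regulators of chemokine mRNA decay, 2 rose and 3 fell, with a median of -0.02. Zc3h12a, which encodes the endonuclease Regnase-1, rose by 0.84 ± 0.13, and Mapkapk2, a kinase gene that acts on the decay factor tristetraprolin, rose by 0.67 ± 0.09. Zfp36l2 (-1.05 ± 0.13), of the tristetraprolin family, and Dusp1 (-0.62 ± 0.18), a phosphatase gene of the p38 pathway, fell. Without replicate 1, 6 of the 19 rose and 4 fell.

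Downstream of the receptor, 7 of 28 signalling and desensitisation genes rose and 5 fell, with a median of 0.09. Grk5 (0.91 ± 0.11), a receptor kinase gene, and Rac2 (0.55 ± 0.09), the GTPase gene of neutrophil migration, rose. Rgs1 (-1.23 ± 0.16), which encodes a brake on G protein signalling, and the G protein subunit gene Gng2 (-0.50 ± 0.09) fell. Among 17 tested genes of proteases and proteoglycans that cut or bind CXC chemokines, 4 rose and 6 fell, with a median of 0.12. The heparan sulfate carriers Sdc1 (2.88 ± 0.34) and Sdc4 (1.35 ± 0.20) rose, and Sdc3 (-0.87 ± 0.13) and the heparanase gene Hpse (-1.05 ± 0.09) fell. Without replicate 1 the counts were 10 and 5 for signalling and 4 and 6 for the proteases and proteoglycans.

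**Figure D5:**
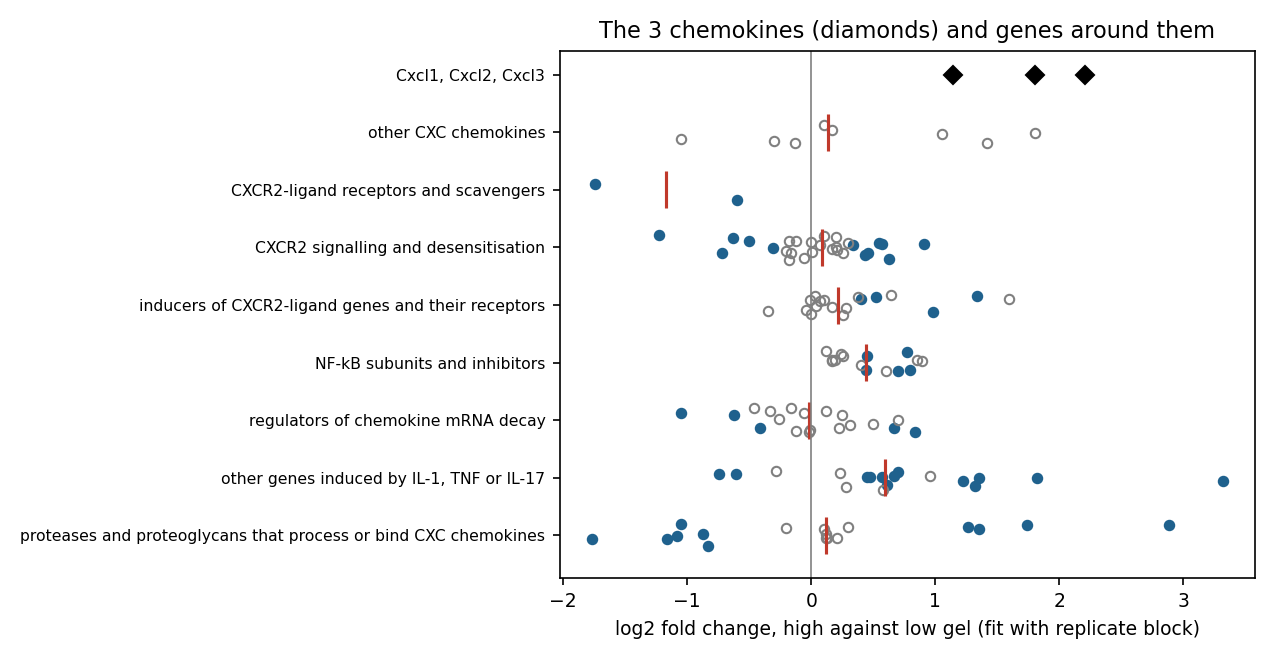
Log2 fold change of high against low (horizontal, edgeR fit with the replicate block) for the 3 chemokines (diamonds) and for each tested gene of 8 lists; filled points have an adjusted p under 0.05, open points do not, and red lines are list medians. The trio lies from 1.14 to 2.21, the list medians from -1.17 for the receptors to 0.59 for genes induced by IL-1, TNF or IL-17; vertical scatter within a list is only for legibility.

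For the smaller steps fewer of these genes passed. For middle against low 8 of the 125 rose and 1 fell with the block, where 1.84% of all tested genes were called. Without the block 0 passed. At an unadjusted p under 0.05 there were 12, against 318 of all 12094 tested genes, and DESeq2 called 4, against 35 of all genes. For high against middle 0 passed by edgeR with the block, where 0.0165% of tested genes were called. At an unadjusted p under 0.05 there were 38 with the block, against 1272 of all 12094 tested genes. Without the block 0 passed, and 8 were at an unadjusted p under 0.05, against 179 of all 12094. DESeq2 called 0, against 1 of all genes. Without replicate 1, with the block, 45 of the 125 passed in each of these comparisons, against 6.75% of tested genes for middle against low and 7.37% for high against middle.

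The genes most alike to each member in profile were sought by the root mean square difference of log2 CPM over the 9 libraries, after each gene was centred on its own mean. This measure includes the replicate split, and all genes share the same libraries. Nearest to Cxcl1 of 12093 genes was Cxcl3 (0.367), followed by Procr (0.459), Styk1 (0.476) and Gsta3 (0.535), where the median gene was at 1.22. Nearest to Cxcl3 were Clmp (0.336), Il10 (0.362) and Lmntd1 (0.365), with Cxcl1 in the 4th place (0.367) and a median of 0.945. Nearest to Cxcl2 were Sod2 (0.138), Nfil3 (0.146) and Cd14 (0.151), with a median of 0.602. Cxcl2 was in the 32nd place for Cxcl3 and the 103rd for Cxcl1, whereas from Cxcl2 itself Cxcl3 was in the 3093rd place and Cxcl1 in the 8885th. This measure counts the size of the changes as well as their direction, so a gene that varied more widely than Cxcl2 ranked far from it. The Pearson correlation of log2 CPM with Cxcl2 was 0.89 for both Cxcl1 and Cxcl3, and 0.98 between Cxcl1 and Cxcl3. Of these genes, Styk1, Clmp and Lmntd1 had means of 2.74, 4.17 and 0.984 CPM.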

How the data were processed

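Per the labels, stranded poly(A) libraries were sequenced as paired reads of 150 bases. The submitters' processing notes name HISAT2 2.0.1, HTSeq 0.6.1, cutadapt 1.9.1 and DESeq2 without a version, with GRCm39 as the build; parameters and annotation are not stated there. Each table deposited by the authors gives raw counts per gene, FPKM, and, as another deposited value, the exonic size of the gene. FPKM recomputed from counts and sizes matched the authors' FPKM within 0.0051 in 100% of values, and FPKM was left unused.

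The model was fitted to the deposited counts in edgeR 4.0.16 (R 4.3.3): filterByExpr (12094 genes), TMM, 1 quasi-likelihood model over 9 libraries, two-sided contrasts and Benjamini-Hochberg adjustment over all tested genes, with a threshold of 0.05. Standard errors are the size of the log2 difference divided by the square root of F. Same-numbered libraries deviated together (correlations of 0.595 to 0.856 over 9 pairs, seen in the data and not stated in the labels), so a fit with the number as a block is also given. Libraries numbered 2 and 3 of different groups correlated as well (0.552 to 0.698), so the data mainly set replicate 1 apart. DESeq2 1.42.0, other scalings, no filter and left-out libraries were alternatives, and fits of the block without replicate 1 were chosen after the data were seen.

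Members and lists were chosen with earlier results of these data known. Named genes are up to 4 per list with the smallest p for high against low with the block. Added to them are Cxcr1, Cxcr2, Csf3 and Sdc1, and the 3 genes nearest to each member. Ccl2 and Ccl7 were named after their values were seen. Log2 CPM used a prior count of 2. Promoter windows are RefSeq's on GRCm38.p6, a build other than that of the counts, and serve for sequence alone.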

Additional observations from a re-analysis of the deposited data

How the results depend on the processing

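The log2 differences of Cxcl1, Cxcl2 and Cxcl3 in all 3 comparisons kept their sign under each of the 14 alternatives run for each, and moved by less than 1 SD of log2 CPM within groups. That SD holds the split of replicate 1 and is wide for Cxcl1 (0.97 for high against low and 0.83 for high against middle). The SD of the differences within replicate numbers was 0.26 and 0.11, and leaving out a single replicate 1 library moved both Cxcl1 differences by more than that. For high against low they ranged from 1.45 to 3.02 for Cxcl1, 0.96 to 1.37 for Cxcl2 and 1.43 to 2.17 for Cxcl3. The ends for Cxcl1 came from leaving out high replicate 1 (1.45) and low replicate 1 (3.02). For high against middle, leaving out high replicate 1 or middle replicate 1 gave 0.10 or 1.40 for Cxcl1 (0.80 with all libraries) and 0.26 or 1.21 for Cxcl3 (0.68). Leaving out a single replicate 1 library removes it from 1 group only, so that the group means are no longer balanced for the replicate number.

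Counts of called genes depended on the replicate term and on replicate 1. For high against low 11 genes were called by edgeR without the block, 1869 with the replicate block, 257 by DESeq2, 3207 without replicate 1 and 3183 with the replicate block without replicate 1. Leaving out other libraries or numbers gave 0 to 41. For middle against low the counts were 0 without the block (318 at an unadjusted p under 0.05), 222 with the replicate block, 35 by DESeq2, 784 without replicate 1 and 825 with the replicate block without it. For high against middle they were 0 (179 at an unadjusted p under 0.05), 2, 1, 840 and 900. Of 24 counts over the 8 lists and 3 comparisons, 11 moved with the replicate block, and 22 did so without replicate 1, both with the block and without it. A count was said to move if it changed by more than 1.5 times or from 0 to any other number. Only that of proteases and proteoglycans for high against low was above 0 without the block. The cause was not tested. Mean levels per length moved by less than 1 SD under the other scalings, and shares within the trio do not depend on scaling by construction. Depth limited Cxcl5 and Cxcl15, with at most 50 and 7 counts in a library. Cxcl12, Cxcl13 and Cxcl14 were low as well, with group means of at most 2.68, 0.647 and 1.54 CPM.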

Other observations

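GGGAATTTCCC, found before the start of all 3 chemokine genes, also lay in the promoter windows of 11 other genes, of which 3 were expressed enough to test. In high against low, with the replicate block, Il16 differed by 0.14 ± 0.09 (edgeR adjusted p = 0.325) and Hpn by 0.44 ± 0.41 (edgeR adjusted p = 0.511), and Zfp84 fell by 0.42 ± 0.12 (edgeR adjusted p = 0.0375). The other 8 were too low to test or not in the tables. These genes were named after their values were seen.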
